A study of Homo sapiens with 24 samples.

Results

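The Iroquois (IRX) genes encode homeodomain transcription factors of the TALE class, which carry an extended loop in the homeodomain and a short Iroquois motif. The human genome holds them in a pair of clusters that arose by duplication. In vertebrate embryos they are known for dividing the neural plate into regions, for marking the diencephalon and midbrain behind the anterior forebrain, and for roles in heart, limb and neuronal differentiation. All 6 members (IRX1 to IRX6) were found by gene symbol among the 61551 genes of the count table used, and each was followed over 4 genotypes and 2 stages.

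All cells derive from H9 (WA09), a widely used line of human embryonic stem cells (hESCs). The genotypes were hHAR123 (unedited, WT), HAR123-KO (both copies of HAR123 deleted), and cHAR123 and mHAR123 (the chimpanzee or mouse sequence put in place of the human one). HAR123 is a noncoding element within an intron of SMG6. Both stages were measured by bulk RNA-seq: undifferentiated hESCs (day 0), and neuroectoderm made by 5 days of Noggin and SB431542, which block BMP and activin/TGF-β signaling. There were 3 libraries per genotype and stage and 24 in all. The study describes a pair of clones per genotype, and the clone behind each library is not given in the sources used here, so p-values measure the spread between libraries, which may in part be technical. HAR123 has no entry of its own among gene counts, so the genotype labels were not checked by a targeted gene.

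Library totals were 23334732 to 35198684 counts in hESCs and 21022748 to 25978892 in neuroectoderm, and no pair of replicates looked like one library deposited again. Neuroectoderm libraries of hHAR123 fit their label against hESCs. There 8 of 8 neuroectoderm markers were up-regulated and 6 of 8 pluripotency markers down-regulated, where 45.9% of all genes tested were called in either direction. In cHAR123 and mHAR123, 8 of 8 neuroectoderm markers were up-regulated, against 42.7% and 41.9%. In HAR123-KO it was 6 of 7 tested, against 41.1%. Neural crest markers summed to 1611 to 1626 CPM in HAR123-KO neuroectoderm, above the neuroectoderm markers at 1138 to 1154. The 2 ortholog genotypes need a caution. The study lists base means for the DEGs of each genotype. Base means recomputed here from the neuroectoderm libraries labelled mHAR123 matched the entries under cHAR123 at 117 of 117 genes, and those from libraries labelled cHAR123 matched the entries under mHAR123 at 114 of 114. All values below follow the library labels, and every cHAR123 or mHAR123 neuroectoderm value carries this doubt. In hESCs, and for HAR123-KO at both stages, the entries matched the labels.

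IRX4, IRX2 and IRX1 form the IRXA cluster on chromosome 5 (GRCh38). IRX4 lies at chr5:1877413-1887236 on the minus strand, IRX2 at chr5:2745845-2751677 on the minus strand and IRX1 at chr5:3595832-3601403 on the plus strand, with 859 kb between IRX4 and IRX2 and 844 kb between IRX2 and IRX1. IRX3, IRX5 and IRX6 form the IRXB cluster on chromosome 16. IRX3 lies at chr16:54283304-54286787 on the minus strand, IRX5 at chr16:54930865-54934485 on the plus strand and IRX6 at chr16:55324203-55330756 on the plus strand, with 644 kb and 390 kb between neighbours. Exon lengths used for counting were 2080 bases for IRX1, 3399 for IRX2, 2935 for IRX3, 2974 for IRX4, 2842 for IRX5 and 2952 for IRX6.

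Promoters are shown for IRX1, IRX2 and IRX4, the 3 members matched in the RefSeq table used here. On differentiation IRX1 and IRX2 were up-regulated and IRX4 was lower. Each run is the RefSeq window from 250 bases before to 50 bases after the start site (GRCh38.p14), written 5′ to 3′ on the strand of the gene. Capitals mark GC boxes (GGGCGG, the letters bound by SP and KLF factors) and CCAAT boxes (CCAAT, bound by NF-Y) on either strand. IRX4 has 3 start sites in that table, and the first is printed. The windows are chr5:3595582-3595881 (plus) for IRX1, chr5:2751628-2751927 (minus) for IRX2 and chr5:1886896-1887195 (minus) for IRX4.
IRX1: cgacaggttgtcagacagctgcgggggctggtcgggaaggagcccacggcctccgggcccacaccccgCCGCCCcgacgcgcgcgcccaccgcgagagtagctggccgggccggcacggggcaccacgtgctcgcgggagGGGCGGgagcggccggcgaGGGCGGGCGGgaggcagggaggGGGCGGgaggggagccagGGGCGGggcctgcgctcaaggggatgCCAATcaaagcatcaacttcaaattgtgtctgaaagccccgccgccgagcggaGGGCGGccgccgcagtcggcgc
IRX2: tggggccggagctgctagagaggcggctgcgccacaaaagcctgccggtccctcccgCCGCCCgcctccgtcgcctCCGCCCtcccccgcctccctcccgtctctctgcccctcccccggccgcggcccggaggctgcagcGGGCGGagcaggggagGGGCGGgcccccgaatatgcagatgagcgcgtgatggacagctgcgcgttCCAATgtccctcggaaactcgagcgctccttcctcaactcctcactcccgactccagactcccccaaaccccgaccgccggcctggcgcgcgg
IRX4: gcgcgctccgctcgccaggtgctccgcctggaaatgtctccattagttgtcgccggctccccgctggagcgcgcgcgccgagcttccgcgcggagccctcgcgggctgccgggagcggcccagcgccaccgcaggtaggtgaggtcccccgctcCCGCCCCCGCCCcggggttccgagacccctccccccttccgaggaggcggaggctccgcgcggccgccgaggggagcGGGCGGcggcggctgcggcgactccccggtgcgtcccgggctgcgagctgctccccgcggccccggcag

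IRX1 held 7 GC boxes, IRX2 held 4 and IRX4 held 3 at the printed start site. A GC box was in 45.0% of all 35116 RefSeq promoter windows of this length. IRX1 and IRX2 each had 1 CCAAT box, at −25 and −43 from the start site, and none of the 3 IRX4 windows had one (34.6% of all windows did). TATAAA was in none of the printed windows and in 11.5% of all. The TCF/LEF core CTTTGA was in the IRX1 window once, at −21, where it overlaps the CCAAT match by 1 base, and in 12.9% of all windows. ACANNTGT, a palindrome bound by Iroquois proteins, was in none of the printed windows and in 5.62% of all. GC content was 76.0% in IRX1, 73.3% in IRX2 and 79.7% in IRX4, against a median of 58.7% over all windows. The window of IRX2 shares 285 bases with that of IRX2-DT, a noncoding transcript on the other strand, by the RefSeq start sites.

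Levels are given as counts per library and as CPM (counts scaled to a common library total), and between genes only as CPM per kb of exon. In hHAR123 hESCs, IRX2 was the leading member, with 3.59 ± 0.31 CPM per kb (SD, n = 3) and 70.6% ± 3.5 (SD) of the summed length-scaled level of the 6 genes. IRX3 followed at 0.534 ± 0.128 CPM per kb, IRX4 at 0.486 ± 0.044, IRX1 at 0.239 ± 0.057, IRX6 at 0.121 ± 0.020 and IRX5 at 0.108 ± 0.046, all SD with n = 3. In hHAR123 neuroectoderm the order was different. IRX1 led with 17.5 ± 1.6 CPM per kb, before IRX2 with 8.83 ± 0.42, IRX3 with 2.97 ± 0.28 and IRX5 with 0.785 ± 0.057, while IRX4 and IRX6 were near the limit of 3 counts. The summed level of the 6 genes was 5.08 ± 0.26 CPM per kb in hHAR123 hESCs and 30.2 ± 2.3 in hHAR123 neuroectoderm. In neuroectoderm it was 45.3 ± 1.1 in mHAR123, 53.0 ± 0.87 in cHAR123 and 90.3 ± 0.60 in HAR123-KO (SD, n = 3 each). In bulk RNA, a different number of expressing cells and a different amount of RNA per cell cannot be told apart.

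**Figure D1:**
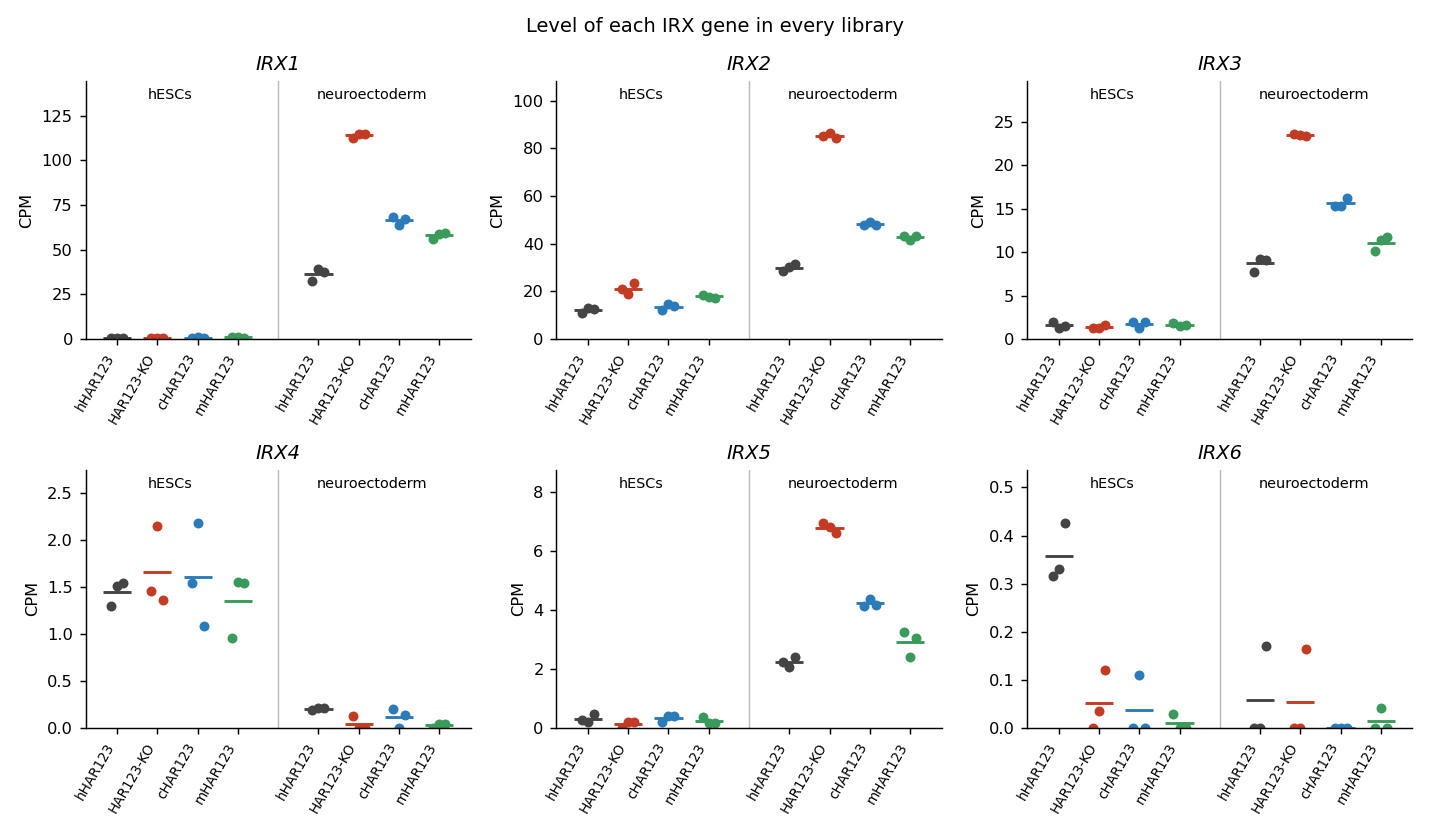
Level of each IRX gene in CPM (linear axis from 0, a separate scale per gene) in the 24 libraries, by stage and genotype. Each point is 1 library and each bar the mean of 3. In neuroectoderm the means of IRX1, IRX2, IRX3 and IRX5 stood in the order HAR123-KO, cHAR123, mHAR123, hHAR123, and IRX4 and IRX6 were near 0.

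IRX1, IRX2, IRX3 and IRX5 were up-regulated 2.78- to 3.23-fold in HAR123-KO neuroectoderm, which includes members of both clusters. A gene was called a differentially expressed gene (DEG) at an adjusted p under 0.01 (edgeR quasi-likelihood test, Benjamini-Hochberg over all genes tested) and a log2 fold change over 1 in size. All 4 IRX genes tested passed, against 4.92% of 21362 genes called higher in this comparison. IRX4 and IRX6 did not pass the filter on low counts and were not tested.

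IRX1, expressed in the early neural plate behind the anterior forebrain, had 687, 943 and 885 counts in hHAR123 neuroectoderm and 2616, 2755 and 2804 in HAR123-KO. The groups were far apart, at 36.5 ± 3.3 and 114 ± 1.1 CPM (SD, n = 3). The log2 fold change was 1.69 ± 0.05 (SE, adjusted p = 2.26e-34, edgeR), a 3.23-fold difference. IRX2, its neighbour in the IRXA cluster and a partner in midbrain and hindbrain patterning, had 599, 731 and 733 counts against 1977, 2077 and 2067. Its groups did not overlap either, and its log2 fold change was 1.56 ± 0.05 (SE, adjusted p = 1.07e-32, edgeR).

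IRX3, which sets the position of progenitor domains in the neural tube, had 163, 223 and 214 counts in hHAR123 and 548, 565 and 571 in HAR123-KO. Every knockout library was above every hHAR123 library, with a log2 fold change of 1.48 ± 0.08 (SE, adjusted p = 2.65e-22, edgeR). IRX5, an IRXB gene known from retina and heart, was lower in level and moved by a like amount. It had 47, 50 and 56 counts in hHAR123 and 161, 163 and 161 in the knockout, and its log2 fold change was 1.65 ± 0.14 (SE, adjusted p = 5.45e-15, edgeR). With each library left out in turn, all 4 genes stayed DEGs, and the 4 log2 fold changes lay between 1.39 and 1.74.

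The make-up of the family is given by each gene's share of the summed level. IRX1 took 58.0% ± 1.2 of the summed CPM per kb in hHAR123 neuroectoderm and 60.7% ± 0.34 in HAR123-KO, and IRX2 29.3% ± 1.1 and 27.8% ± 0.23 (SD, n = 3). IRX3 took 9.81% ± 0.20 and 8.86% ± 0.09, and IRX5 2.61% ± 0.28 and 2.64% ± 0.08. These shares were not tested.

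Neuroectoderm labelled cHAR123 or mHAR123 had levels between hHAR123 and HAR123-KO for each of IRX1, IRX2, IRX3 and IRX5. No IRX gene was a DEG in either ortholog genotype against hHAR123. The log2 fold changes of the 4 genes tested were under 1, and IRX4 and IRX6 were not tested. The share of genes called was 0.978% of 21275 for cHAR123 and 1.03% of 21220 for mHAR123. By adjusted p alone, 4 of the 4 genes tested were higher in cHAR123, against 5.9% of all genes tested, and 3 of 4 in mHAR123, against 8.8%. Both comparisons use the same 3 hHAR123 libraries as the HAR123-KO comparison, so the values are given side by side.

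IRX1 had 1701, 1514 and 1503 counts in cHAR123 neuroectoderm and 1451, 1422 and 1373 in mHAR123. Its log2 fold change against hHAR123 was 0.88 ± 0.05 in cHAR123 (SE, adjusted p = 3.23e-17, edgeR) and 0.71 ± 0.06 in mHAR123 (SE, adjusted p = 8.87e-13, edgeR). No library of either genotype overlapped hHAR123. IRX2 had 1199, 1167 and 1063 counts in cHAR123 and 1128, 1007 and 1001 in mHAR123. It was again higher than in hHAR123, by 0.70 ± 0.05 and 0.55 ± 0.06 on the log2 scale (SE; adjusted p = 3.37e-14 and 4.79e-10, edgeR).

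The IRXB genes were also higher, except that IRX5 missed the threshold in mHAR123. IRX3 had 383, 363 and 362 counts in cHAR123 and 262, 276 and 270 in mHAR123, with log2 fold changes of 0.85 ± 0.09 and 0.38 ± 0.10 against hHAR123 (SE; adjusted p = 2.55e-10 and 0.00307, edgeR). IRX5 had 103, 103 and 93 counts in cHAR123 and 84, 58 and 70 in mHAR123. The difference for IRX5 was 0.93 ± 0.15 in cHAR123 (SE, adjusted p = 1.64e-05, edgeR) and 0.42 ± 0.17 in mHAR123 (SE, adjusted p = 0.081, edgeR). The mHAR123 and hHAR123 ranges nearly touched, at 2.40 CPM for the lowest mHAR123 library and 2.39 for the highest hHAR123 library. IRX3 in mHAR123 was past the adjusted p by a small margin: without hHAR123 replicate 1, mHAR123 replicate 2 or mHAR123 replicate 3 it was 0.0326, 0.0197 and 0.0257 (edgeR), and with DESeq2 0.0333.

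**Figure D2:**
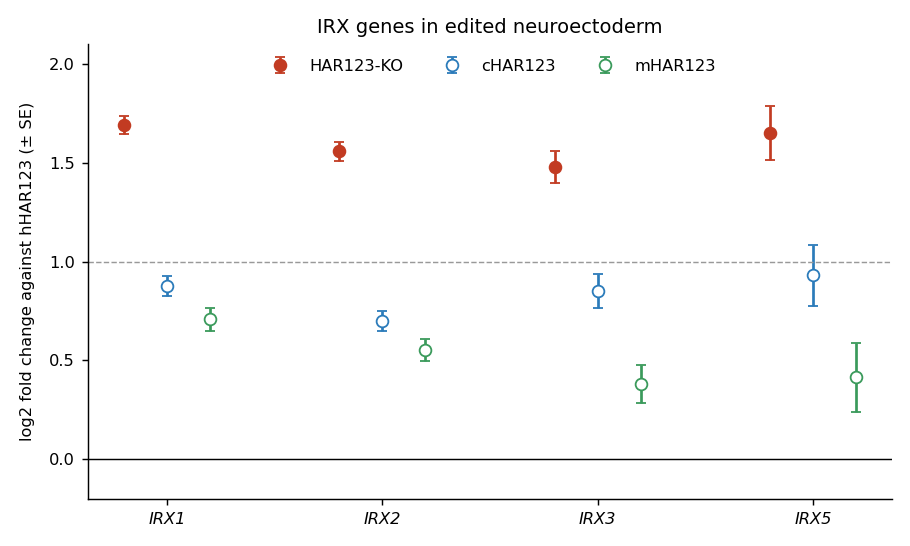
Log2 fold change against hHAR123 neuroectoderm (points, ± SE, 3 against 3 libraries) for the 4 IRX genes tested, by genotype. Filled points passed both thresholds, open points did not pass the fold-change minimum or the adjusted p, and the dashed line marks a log2 fold change of 1; HAR123-KO values run from 1.48 to 1.69, cHAR123 from 0.70 to 0.93 and mHAR123 from 0.38 to 0.71.

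Against HAR123-KO, both ortholog genotypes had less of the 4 genes. In cHAR123 the log2 differences were −0.79 ± 0.03 for IRX1, −0.83 ± 0.04 for IRX2, −0.60 ± 0.06 for IRX3 and −0.69 ± 0.12 for IRX5 (SE). None was a DEG, against 7.61% of 21189 genes, and 4 of 4 were lower by adjusted p alone, against 20.3%. In mHAR123 they were −0.96 ± 0.04, −0.98 ± 0.04, −1.07 ± 0.07 and −1.21 ± 0.13 (SE) in the same order. IRX3 and IRX5 were down-regulated DEGs there (adjusted p = 1.53e-17 and 4.99e-11, edgeR), 2 of 4 against 3.78% of 21138 genes called lower. All 4 were lower by adjusted p alone, against 18.7%. The IRX3 value was at the fold-change limit: without replicate 1 of mHAR123 it was −0.999 and not called. The HAR123-KO libraries are shared by these comparisons and the one with hHAR123.

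Compared directly, mHAR123 had less than cHAR123 for all 4 genes, with unequal support. IRX3 differed by −0.48 ± 0.08 on the log2 scale (SE, adjusted p = 2.04e-05, edgeR) and IRX1 by −0.17 ± 0.04 (SE, adjusted p = 0.00354, edgeR). IRX5 at −0.52 ± 0.15 and IRX2 at −0.15 ± 0.05 (SE) missed the threshold, with adjusted p = 0.0174 and 0.0276 (edgeR). The IRX1 value did so too in 4 of 6 fits that left out a library (cHAR123 replicate 1 or 3, mHAR123 replicate 1 or 2), where the adjusted p reached 0.0468. No IRX gene was a DEG, against 0.261% of 21108 genes, and 2 of 4 were lower by adjusted p alone, against 1.56%.

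On differentiation, IRX1, IRX2, IRX3 and IRX5 were up-regulated and IRX4 was down-regulated in each of the 4 genotypes. All 5 genes tested were DEGs each time, against a background of 45.9% of 22280 genes in hHAR123, 41.1% of 21509 in HAR123-KO, 42.7% of 22049 in cHAR123 and 41.9% of 22173 in mHAR123. With that many genes changing, the count of members adds little, and the sizes are the result. IRX4, at 0 to 5 counts in neuroectoderm, passed the filter through the hESC libraries, so it could only be called lower and its call is no support for a direction. IRX5, at 0 to 16 counts in hESCs, passed the filter through the neuroectoderm libraries, so its call is no support for a direction either. IRX6 was not tested in any of these.

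IRX1 changed most. It had 15, 13 and 22 counts in hHAR123 hESCs and 687, 943 and 885 in neuroectoderm, a log2 fold change of 5.89 ± 0.13 (SE, adjusted p = 5.98e-33, edgeR). In HAR123-KO it went from 16, 24 and 23 counts to 2616, 2755 and 2804, which is 7.07 ± 0.08 on the log2 scale (SE). In cHAR123 and mHAR123 the values were 6.43 ± 0.10 and 5.82 ± 0.10 (SE).

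IRX2 was already present in hESCs, with 350, 434 and 439 counts in hHAR123, and its change was the smallest of the 4. It was 1.01 ± 0.07 in hHAR123, 1.81 ± 0.05 in HAR123-KO, 1.63 ± 0.06 in cHAR123 and 1.09 ± 0.06 in mHAR123 on the log2 scale (SE). The hHAR123 value sat on the fold-change limit and fell below it, to between 0.93 and 0.99, in 6 of the alternative fits, with an adjusted p that stayed far under 0.01.

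Of the IRXB genes, IRX3 had 63, 42 and 51 counts in hHAR123 hESCs and rose by 2.19 ± 0.14 in hHAR123, 3.86 ± 0.11 in HAR123-KO, 2.96 ± 0.12 in cHAR123 and 2.55 ± 0.13 in mHAR123 (log2, SE). IRX5 had 8, 7 and 16 counts in hHAR123 hESCs and 0, 6 and 6 in HAR123-KO. Its log2 change was 2.54 ± 0.28 in hHAR123, 5.35 ± 0.26 in HAR123-KO, 3.44 ± 0.24 in cHAR123 and 3.41 ± 0.28 in mHAR123 (SE). The HAR123-KO value depends on a starting level of a few counts.

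IRX4, best known from the ventricles of the heart, went the other way. It had 41, 50 and 54 counts in hHAR123 hESCs and 4, 5 and 5 in hHAR123 neuroectoderm. The hESC counts were 34, 63 and 45 in HAR123-KO, 41, 59 and 33 in cHAR123 and 33, 44 and 45 in mHAR123, and the neuroectoderm counts 3, 0 and 0, then 5, 0 and 3, then 0, 1 and 1. No neuroectoderm library reached any hESC library. From pooled CPM, the neuroectoderm to hESC ratio was 0.141 in hHAR123 (95% exact interval 0.0751 to 0.244), 0.0253 in HAR123-KO (0.00515 to 0.0753), 0.0715 in cHAR123 (0.0303 to 0.145) and 0.0206 in mHAR123 (0.00247 to 0.0762). These intervals cover counting error only.

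**Figure D3:**
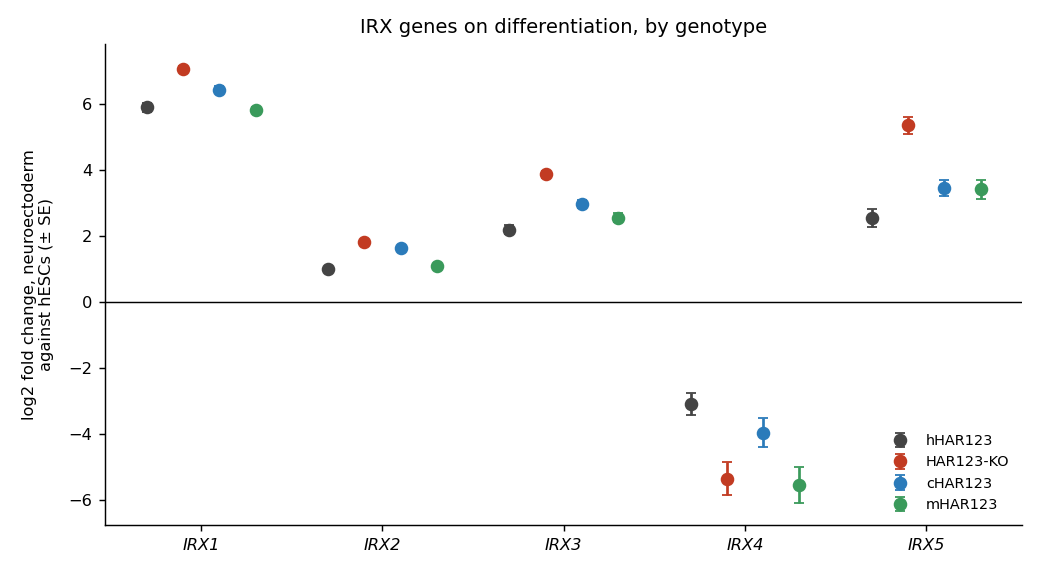
Log2 fold change of neuroectoderm against hESCs (points, ± SE, 3 against 3 libraries) for the 5 IRX genes tested, by genotype; all points passed both thresholds. IRX1, IRX2, IRX3 and IRX5 lie above 0 and IRX4 below, and the HAR123-KO point is the highest of each of the 4 rising genes. IRX4 and IRX5 passed the filter on low counts only through the stage where they are high.

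The up-regulation of IRX1, IRX2, IRX3 and IRX5 on differentiation was larger in HAR123-KO than in hHAR123. Tested as an interaction over 12 libraries, the HAR123-KO effect was larger in neuroectoderm than in hESCs by 1.15 ± 0.30 for IRX1, 1.65 ± 0.21 for IRX3 and 2.79 ± 0.52 for IRX5 (log2, SE; adjusted p = 0.00137, 4.40e-09 and 1.25e-05, edgeR). These 3 of 5 genes tested were called, against 3.84% of 23113 genes called higher. The IRX5 value includes the HAR123-KO hESC libraries, where it had 0, 6 and 6 counts and was not tested on its own, so its size is uncertain. IRX5 also passed the filter through the neuroectoderm libraries, so its call is given as a description. IRX2 differed by 0.78 ± 0.09 (SE, adjusted p = 3.21e-10, edgeR), under the fold-change minimum, which makes 4 of 5 by adjusted p alone against 18.6%. IRX4 differed by −2.29 ± 0.85 (SE, adjusted p = 0.0262, edgeR) and was not called. It passed the filter through the hESC libraries, and its neuroectoderm counts were 4, 5 and 5 in hHAR123 against 3, 0 and 0 in HAR123-KO. The IRX1 call was lost without replicate 3 of hHAR123 hESCs, where the value was 0.95 with an adjusted p of 0.0329 (edgeR).

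For cHAR123 no IRX gene was called in the interaction, against 0.797% of 23329 genes. IRX2 alone passed the adjusted p, at 0.59 ± 0.09 (SE, adjusted p = 9.40e-06, edgeR), 1 of 5 against 5.63% called higher on that rule. IRX3 at 0.73 ± 0.21 (SE) missed it with an adjusted p of 0.011 (edgeR). For mHAR123 none of 5 was called, against 0.967% of 23681 genes, and the lowest adjusted p was 0.0381, for IRX4 at −2.48 ± 0.88 (SE, edgeR). IRX4 passed the filter through the hESC libraries. Its value rests on 4, 5 and 5 neuroectoderm counts in hHAR123 against 0, 1 and 1 in mHAR123. With the cHAR123 and mHAR123 neuroectoderm labels exchanged, IRX3 in mHAR123 passed the adjusted p at 0.81 (adjusted p = 0.00271, edgeR) and no gene passed the fold-change minimum as well.

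In hESCs, IRX2 was the one well-counted member past the adjusted p, in HAR123-KO and mHAR123. It had 350, 434 and 439 counts in hHAR123, 487, 558 and 773 in HAR123-KO, 321, 404 and 420 in cHAR123 and 640, 506 and 508 in mHAR123. In CPM, every HAR123-KO and mHAR123 library was above every hHAR123 library, while cHAR123 overlapped hHAR123. IRX2 differed from hHAR123 by 0.77 ± 0.07 on the log2 scale in HAR123-KO (SE, adjusted p = 4.52e-11, edgeR) and 0.51 ± 0.07 in mHAR123 (SE, adjusted p = 5.34e-08, edgeR), both under the fold-change minimum. In cHAR123 it was 0.12 ± 0.08 (SE, adjusted p = 0.261, edgeR), with an interval of −0.03 to 0.27.

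IRX1 had 16, 24 and 23 counts in HAR123-KO hESCs, 17, 27 and 12 in cHAR123 and 31, 32 and 21 in mHAR123, beside 15, 13 and 22 in hHAR123. On the log2 scale these differ from hHAR123 by 0.53 ± 0.30 in HAR123-KO, 0.38 ± 0.33 in cHAR123 and 0.82 ± 0.29 in mHAR123 (SE), and none passed (adjusted p = 0.246, 0.432 and 0.0265, edgeR). IRX3 and IRX4 had overlapping ranges in all 3 comparisons with hHAR123, with log2 fold changes between −0.18 and 0.17 and adjusted p of 0.597 or more (edgeR). IRX5, at 0 to 16 counts per library, was tested only in cHAR123, at 0.07 ± 0.42 (SE, adjusted p = 0.926, edgeR). The depth allows no statement about IRX5 in the other hESC groups.

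IRX6, the least studied member, was seen mainly in unedited hESCs. It had 10, 11 and 15 counts in hHAR123 hESCs, 0, 1 and 4 in HAR123-KO, 0, 3 and 0 in cHAR123 and 1, 0 and 0 in mHAR123. No edited hESC library reached the lowest hHAR123 library. The gene passed the filter through the hHAR123 libraries in the tests of HAR123-KO and mHAR123, so it could only be called lower there, and the fits are given as a description. They placed it among the down-regulated DEGs in HAR123-KO (log2 fold change −2.57 ± 0.61, SE, adjusted p = 0.00152, edgeR) and in mHAR123 (−4.66 ± 0.78, SE, adjusted p = 6.39e-06, edgeR). It was the 1 gene of 5 tested that was called in each, where 0.221% of 20832 and 0.199% of 21139 genes were called lower, and nothing is read from that share. By adjusted p alone, 2 of 5 passed in each, IRX2 higher and IRX6 lower, against 12.4% and 19.2% in either direction. In cHAR123 none of 5 was called, against 0.85% of 20935 genes, and IRX6 did not pass the filter. Without the filter it was called there too, at −3.23 ± 0.70 (SE, adjusted p = 0.000102, edgeR).

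The IRX6 values rest on few counts and on 1 set of hHAR123 libraries. Ratios of pooled CPM to hHAR123 were 0.162 in HAR123-KO (95% exact interval 0.0497 to 0.414), 0.0989 in cHAR123 (0.0195 to 0.313) and 0.0301 in mHAR123 (0.000743 to 0.179), for counting error only. The HAR123-KO call was lost in 3 of 6 fits that left out a library (hHAR123 replicate 3, HAR123-KO replicate 1 or HAR123-KO replicate 2), where the adjusted p reached 0.0163 (edgeR). DESeq2 gave no adjusted p for IRX6 in HAR123-KO or mHAR123. In neuroectoderm IRX6 had 0 to 4 counts in every library and no fold is given.

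Mean levels of IRX1, IRX2, IRX3 and IRX5 had the same order over the 8 conditions in its upper part. It ran HAR123-KO, cHAR123, mHAR123 and hHAR123 neuroectoderm, then the hESC groups. Neighbouring neuroectoderm groups did not overlap in CPM, but the share of all genes with such separation was not computed. For IRX5 the gap was close to a tie, with the lowest mHAR123 library at 2.40 CPM and the highest hHAR123 library at 2.39. Some of these steps missed the threshold, such as IRX5 in mHAR123 against hHAR123 (adjusted p = 0.081, edgeR). For IRX2 the order went on with HAR123-KO hESCs at 21.1 ± 2.2 CPM and mHAR123 hESCs at 17.9 ± 0.61, without overlap, and cHAR123 at 13.6 ± 1.4 and hHAR123 at 12.2 ± 1.0, which overlapped (SD, n = 3). For IRX1, IRX3 and IRX5 neighbouring hESC groups overlapped throughout. IRX4 had the stages the other way round, with 4 overlapping hESC groups of 1.35 to 1.65 CPM above the neuroectoderm groups of 0.0282 to 0.203 CPM.

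IRX genes share short stretches of sequence. Of the 50-base words of each gene's exons, 0.645% (IRX6) to 3.0% (IRX5) also occur in other genes, and for IRX1 15.1%, which includes words shared with ENSG00000259603, an antisense gene that overlaps 383 exon bases of IRX1. That gene had 0 to 3 counts per library. ENSG00000283689 overlaps 10 exon bases of IRX3 on the other strand and had 9 to 30 counts in neuroectoderm. Whether counting used strand is not given in the sources used here, so reads in these overlaps cannot be assigned.

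Genes beside the IRX genes were followed to see how far the difference extended. Within 500 kb of a member lie 81 other genes, of which 20 were tested in HAR123-KO neuroectoderm. Of these, 4 were up-regulated, against 4.92% of all genes tested, and none was down-regulated, against 4.52%. The median log2 fold change was 0.38 against 0.00 over all genes tested. IRX2-DT, which starts 454 bases from IRX2 in the opposite direction in the gene annotation (whose start site differs from the RefSeq one used for the promoter windows), had 96, 96 and 104 counts in hHAR123 and 249, 265 and 245 in the knockout. The groups did not overlap, and its log2 fold change of 1.34 ± 0.11 (SE, adjusted p = 1.74e-15, edgeR) was near that of IRX2.

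ENSG00000289075, 4.79 kb from IRX2, had 18, 41 and 41 counts in hHAR123 and 83, 91 and 96 in the knockout, with a log2 fold change of 1.42 ± 0.19 (SE, adjusted p = 8.87e-09, edgeR). ENSG00000277559, 4.18 kb from IRX3, was called at 1.02 ± 0.33 (SE, adjusted p = 0.00696, edgeR), with 13, 11 and 13 against 27, 33 and 16 counts. The remaining called gene, CES1P1, is a carboxylesterase pseudogene 430 kb from IRX6 at 1.56 ± 0.33 (SE, adjusted p = 7.92e-05, edgeR), and its reads may be shared with related copies. CRNDE, a noncoding gene that starts 1.68 kb from IRX5 in the opposite direction, was higher by 0.46 ± 0.06 (SE, adjusted p = 1.13e-09, edgeR), less than IRX5 at 1.65. FTO, the large gene next to IRX3 whose introns are known for enhancers that contact IRX3 and IRX5, was at 0.18 (adjusted p = 7.36e-05, edgeR). In cHAR123 and mHAR123 neuroectoderm no neighbour was a DEG, and IRX2-DT was at 0.65 ± 0.12 and 0.24 ± 0.13 (SE; adjusted p = 6.00e-05 and 0.175, edgeR). In mHAR123 hESCs IRX2-DT was up-regulated by 1.05 ± 0.26 (SE, adjusted p = 0.00172, edgeR), with 44, 29 and 34 counts against 22, 17 and 15.

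**Figure D4:**
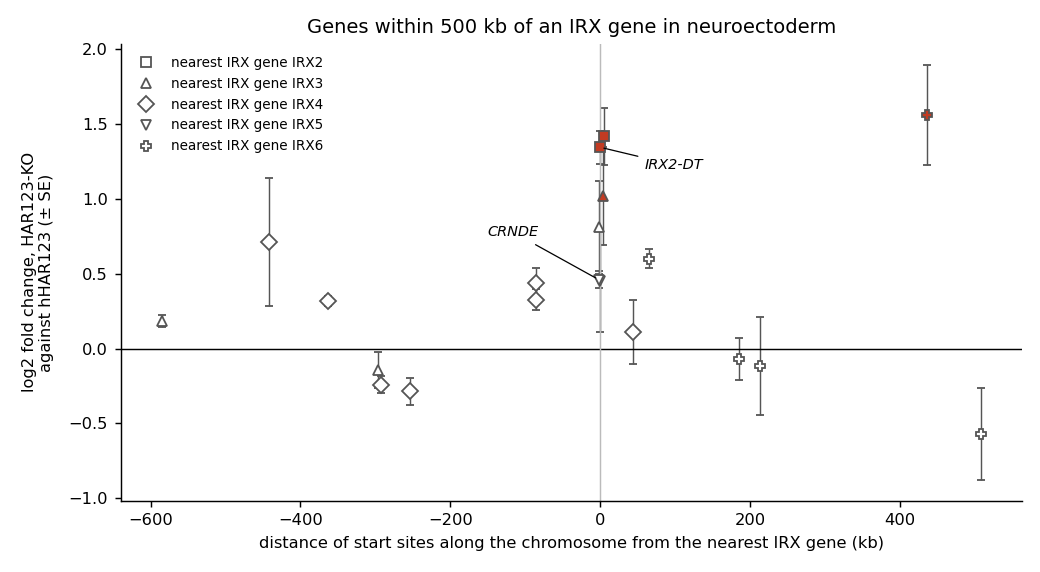
Log2 fold change in HAR123-KO against hHAR123 neuroectoderm (± SE) of the 20 tested genes within 500 kb of an IRX gene, against the distance of start sites along the chromosome in kb; the symbol gives the nearest IRX gene and filled symbols passed both thresholds. Of the 4 called genes, 3 lie within 5 kb of IRX2 or IRX3 and the other is CES1P1.

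On differentiation, 8 neighbours were called higher and 6 lower of 20 tested in hHAR123, where 45.9% of all genes tested were called in either direction. Up-regulated in all 4 genotypes were 6 of the nearest: IRX2-DT and ENSG00000289075 beside IRX2, ENSG00000283689 and ENSG00000277559 beside IRX3, and CRNDE and ENSG00000289307 beside IRX5. Of these, ENSG00000283689, ENSG00000277559 and ENSG00000289307 had 0 to 5 counts in every hESC library. They passed the filter through the neuroectoderm libraries, so they could only be called higher and their calls are no support for a direction. CRNDE rose by 2.64 to 3.13 and IRX2-DT by 1.92 to 3.53 on the log2 scale. Farther out, CES1 rose in all 4 genotypes, and LPCAT1, MRPL36 and NDUFS6, which lie beyond IRX4, fell by 1.37 to 2.07. MMP2, beside IRX6, was at −1.57 in hHAR123, −1.43 in cHAR123, −1.39 in mHAR123 and −0.87 in HAR123-KO, the last under the fold-change minimum, and its stage difference for HAR123-KO was 0.67 ± 0.08 (SE, adjusted p = 5.12e-10, edgeR). SLC6A3 was called lower in hHAR123, cHAR123 and mHAR123 and was at −0.98 in HAR123-KO, with a stage difference of 0.68 ± 0.52 (SE, adjusted p = 0.319, edgeR). Called on differentiation in 1 or 2 genotypes were CES1P1, ENSG00000248994, ENSG00000260066, ENSG00000280392 and SLC6A2.

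Other regulators of neural regions were described from lists, to set the IRX genes beside their surroundings in HAR123-KO neuroectoderm. No list was tested as a set, and some genes stand in more than 1 list (LHX2, OTX2, PAX3, PAX6, SIX3 and SOX2). The lists were chosen with earlier results of these data known, so their counts beside the shares are a description only. The median log2 fold change of all genes tested was 0.00, and 4.92% of them were called higher and 4.52% lower. Among 11 tested of 12 other TALE homeobox genes, 2 were up-regulated, MEIS2 (2.18) and PKNOX2 (1.37), both partners of PBX proteins, and the list's median was −0.01. Forebrain and eye field factors went down: 7 of 9 tested of 12 were down-regulated, against 4.52% of all genes tested, and none was up-regulated, with a median of −2.30. The largest were RAX (−4.10), FEZF2 (−3.60), FEZF1 (−3.31) and LHX5 (−2.37). RAX specifies the eye field, and the FEZF genes keep anterior forebrain identity and are known to oppose IRX1 and IRX3 at its rear border.

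The diencephalic and midbrain list was split, with 6 of 13 tested of 15 up-regulated, 3 down-regulated and a median of −0.25. For this list and the next ones, 4.92% of all genes tested were called higher and 4.52% lower. LMX1B (4.53), WNT1 (4.25) and WNT3A (4.03), known from the isthmus and the roof plate, were up-regulated, and BARHL2 (−4.24), a diencephalic factor, was down-regulated. Of the hindbrain and spinal list 3 of 12 were tested, and EGR2 (−1.94) and FGF8 (−1.95) were down-regulated. Its most posterior genes, such as CDX2, CDX4, HOXB1 and HOXB2, had at most 3 counts in every neuroectoderm library. Of the dorsoventral list 4 of 7 tested of 14 were up-regulated and 2 down-regulated, with a median of 2.42. PAX7 (6.09), MSX1 (3.61), MSX2 (3.44) and PAX3 (2.42), genes of the dorsal neural tube and its border, led the list.

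All 10 WNT response genes were higher by adjusted p alone, against 24.2% of all genes tested. Of the 10, 7 were up-regulated, against 4.92%, none was down-regulated, and the median was 1.48. NKD1 (3.52), SP5 (2.87), AXIN2 (1.92) and DKK1 (1.81), targets of β-catenin signaling, were the largest. Their summed level was 256 to 264 CPM in hHAR123, 321 to 327 in mHAR123, 367 to 376 in cHAR123 and 815 to 841 in HAR123-KO neuroectoderm, the same order as the IRX genes. This order was not particular to the WNT list. The dorsoventral list had it too, at 547 to 561, 597 to 608, 695 to 703 and 839 to 864 CPM. The forebrain and eye field list had the reverse, at 386 to 389, 376 to 385, 341 to 347 and 65.8 to 67.4 CPM. A link between these orders was not tested. Of the retinoic acid list 4 of 8 were up-regulated, against 4.92%, among them STRA6 (3.43), CRABP2 (3.16) and CYP26C1 (1.76). The rest of the list ran from −0.49 to 0.21 and none of it passed the adjusted p, so the list did not move as a whole. The median of this list was 0.93. Its summed level was 63.6 to 67.6 CPM in hHAR123, 94.6 to 97.9 in cHAR123, 109 to 113 in mHAR123 and 499 to 512 in HAR123-KO. Here mHAR123 was above cHAR123, unlike for the IRX genes.

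Markers of other cell types also differed in the same libraries, not all in the direction or the order of the IRX genes. All 7 neural crest markers were up-regulated in HAR123-KO neuroectoderm, against 4.92% of all genes tested. Their median was 4.83, led by FOXD3 (6.27), TFAP2B (5.87), SNAI2 (4.99) and SOX10 (4.83). Their summed level was 203 to 212 CPM in hHAR123, 357 to 366 in cHAR123, 396 to 399 in mHAR123 and 1611 to 1626 in HAR123-KO. In this sum mHAR123 was above cHAR123, unlike for the IRX genes. None of the markers was at or below 3 counts in every library of a genotype. In cHAR123 and mHAR123, 5 of 7 were up-regulated, against 0.522% and 0.603% of all genes tested. Neuroectoderm markers went down in HAR123-KO: 5 of 8 were down-regulated, against 4.52% of all genes tested. HES5, SIX3 (−2.30), LHX2 (−1.97) and SOX2 (−1.73) were among them. The sum of the 8 markers was 1138 to 1154 CPM against 2072 to 2125 in hHAR123. Of the pluripotency list L1TD1 (2.77) and ZFP42 (2.22) were up-regulated and SOX2 down-regulated, and the sum was 1699 to 1736 CPM against 2201 to 2314.

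Markers of other lineages had low sums. Surface ectoderm and placode markers summed to 17.0 to 17.6 CPM in HAR123-KO and 8.31 to 11.7 in hHAR123, with KRT5 and KRT14 at 3 counts or fewer. GATA3 (3.89) also had 3 counts or fewer in every hHAR123 library. It passed the filter through the HAR123-KO libraries, so it could only be called higher and its call is no support for a direction. Mesoderm markers summed to 3.31 to 4.12 and 3.52 to 3.76 CPM, with MEOX1 (1.12) up-regulated. Endoderm markers summed to 52.6 to 56.7 and 48.4 to 49.6 CPM with none called, and SOX17, FOXA2 and GATA6 were at 3 counts or fewer. The part of these cell types in the IRX difference was not tested.

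**Figure D5:**
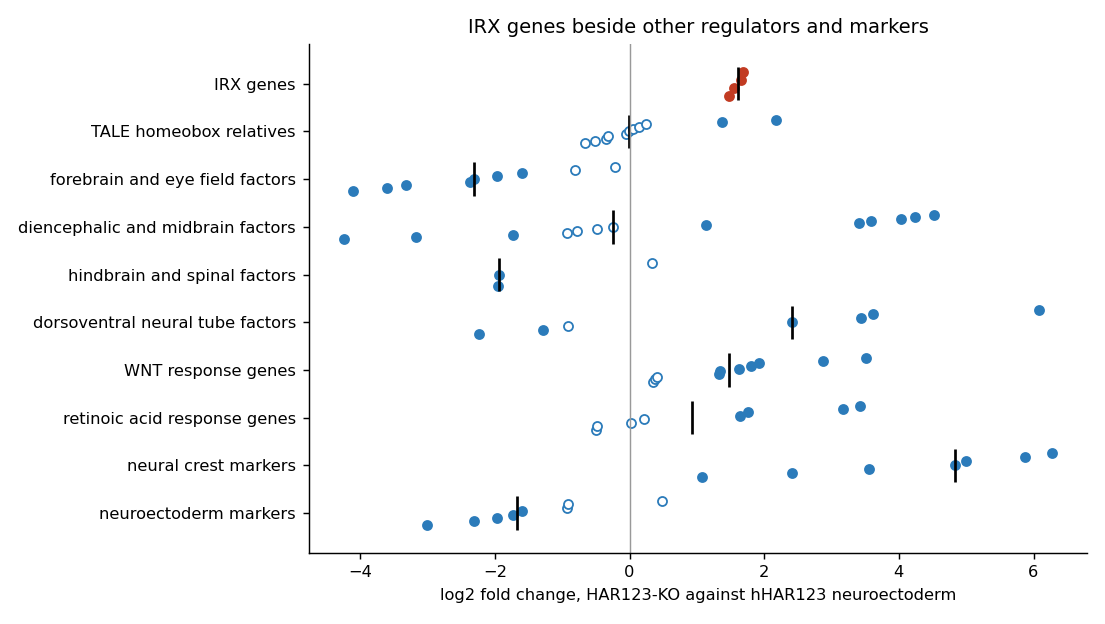
Log2 fold change in HAR123-KO against hHAR123 neuroectoderm for each tested gene of the IRX family and 9 lists (points; filled where both thresholds were passed, vertical offset only for legibility), with the median of each list as a bar. The 4 IRX genes lie between 1.48 and 1.69, forebrain factors lie below 0 and neural crest markers above 1.

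The genes whose level followed each IRX gene most closely over the 12 neuroectoderm libraries were found among 15757 genes with a symbol and a mean of at least 1 CPM. Likeness was the root-mean-square difference of log2 CPM, each gene centred on its own mean, and the 12 libraries share 4 genotypes. For IRX1 the nearest were IRX2 (0.0892), ID1 (0.0981), TENM4 (0.106), ID3 (0.110) and KIF19 (0.113). ID1 and ID3 encode inhibitors of bHLH factors. For IRX2 they were TENM4 (0.0524), CPE (0.0690), KIF19 (0.0752), IRX1 (0.0892) and IGDCC3 (0.0914).

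For IRX3 the nearest were MTSS1 (0.110), KIF19 (0.115), TENM4 (0.116), ID1 (0.117) and C8orf34 (0.135), with IRX2 at rank 6 and IRX1 at rank 7. For IRX5 they were CLEC18C (0.117), which has near-identical copies, MTSS1 (0.119), C8orf34 (0.139), IRX2-DT (0.140) and CXCL14 (0.141), with IRX3 at rank 7 and IRX2 at rank 8. IRX1 was at rank 15 from IRX5, and IRX5 at rank 10 from IRX3. Seen from IRX1, IRX3 was at rank 7 and IRX5 at rank 32, and seen from IRX2 they were at ranks 23 and 42.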

How the data were processed

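Total RNA was depleted of rRNA and sequenced from directional libraries. Per the labels, STAR 2.5.2b, GRCh38 and featureCounts were used, and the deposited table holds raw counts for each gene and library. ANK2, whose row spans 3 broken lines, was left out, which leaves 61551 of 61552 genes. Samples were grouped by the genotype, stage and replicate in their labels.

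Each of 16 comparisons was fitted alone in edgeR 4.0.16 (R 4.3.3): filterByExpr, TMM scaling, quasi-likelihood F test, Benjamini-Hochberg adjustment over all genes tested, with DEGs at an adjusted p under 0.01 and a log2 fold change over 1 in size. The SE is the log2 fold change over the square root of F. The fit recovered known changes in simulated counts. Intervals of log2 differences are ± 1.96 SE and those of count ratios are exact (Clopper-Pearson, 95%). A count of 0 allows up to 3 counts (0.0852 to 0.143 CPM). Profiles used log2(CPM + 0.1). Tables and figures used Python 3.11.15 with pandas 2.3.3, scipy 1.17.1 and matplotlib 3.10.9. Promoters came from RefSeq (GRCh38.p14), which matched 3 of the 6 IRX genes.

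Named were all IRX genes, up to 4 DEGs per list with the largest change in HAR123-KO neuroectoderm, neighbours within 500 kb that were DEGs or overlap or diverge from an IRX gene, and the 5 nearest profiles. FTO was named after its values were seen. Some genes of the lists are not reported here. The members and lists were chosen with earlier results of these data known. Alternatives were DESeq2 1.42.0, its size factors, no filter, the replicate block, other thresholds, one fit per stage, total-count scaling, exchanged cHAR123 and mHAR123 neuroectoderm labels, and leaving out each library.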

Additional observations from a re-analysis of the deposited data

Results flagged for a closer look

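The effect of a genotype differed between hESCs and neuroectoderm for 5 results, each by the interaction test in edgeR at an adjusted p under 0.01. For HAR123-KO against hHAR123 the difference of effects (neuroectoderm minus hESCs, log2) was 1.15 for IRX1, 0.78 for IRX2, 1.65 for IRX3 and 2.79 for IRX5. The IRX5 value rests on 0, 6 and 6 counts in HAR123-KO hESCs. IRX5 passed the filter through the neuroectoderm libraries, so its value is given as a description. For cHAR123 it was 0.59 for IRX2, and with the cHAR123 and mHAR123 neuroectoderm labels exchanged it was 0.45 (adjusted p = 0.000515, edgeR).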

How the results depend on the processing

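Of 961 alternative log2 fold changes for the 74 fits of IRX genes, 946 kept their side of the thresholds, 13 lost a call, 2 gained one and none of the called values reversed. Without a fold-change minimum the number of IRX genes called was 4 in cHAR123 and 3 in mHAR123 neuroectoderm against hHAR123, 4 in both against HAR123-KO, 2 in mHAR123 against cHAR123, 2 in HAR123-KO and in mHAR123 hESCs, and 1 for the cHAR123 stage difference. With DESeq2, or with all libraries of the stage in one fit, which left IRX6 out of the test, 0 were called in HAR123-KO and in mHAR123 hESCs. In cHAR123 hESCs, 1 (IRX6) was called without the filter. At an adjusted p under 0.05, 1 (IRX4) was called for the mHAR123 stage difference, on at most 5 neuroectoderm counts per library. Leaving out 1 library gave 1 to 2 called in mHAR123 against HAR123-KO neuroectoderm, 0 to 1 in HAR123-KO hESCs and 0 to 1 in cHAR123 hESCs. Under all other alternatives the counts stayed within 1.5 times. The fit over a whole stage also called IRX2 in mHAR123 against HAR123-KO neuroectoderm. Scaling by total count raised the median of all genes on differentiation by up to 0.34 in hHAR123, where IRX2 was then at 1.30. The replicate block gave 4 IRX genes called in HAR123-KO neuroectoderm and changed no count. Same-numbered libraries correlated at −0.03 to 0.04. In mHAR123 against hHAR123 neuroectoderm all 3 correlated best with their own number, while in most other comparisons not all did. Whether the numbers pair libraries is not settled, and the main fits used no pairing. Depth limits IRX4 and IRX6 in neuroectoderm and IRX5 and IRX6 in hESCs.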
